A study of Drosophila melanogaster with 9 samples.

Results

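The RNAs made from the mitochondrial genome were followed through 9 RNA-seq libraries of whole Drosophila embryos. Genes whose name in the deposited tables begins with mt: were taken, and 30 of the 14909 genes listed in either table met that rule. They were 2 ribosomal RNA (rRNA) genes, 13 protein-coding genes and 15 transfer RNA (tRNA) genes. The reference annotation holds 37 mitochondrial genes, and the other 7, all tRNA genes, were not analysed here. The genes mt:tRNA:N and mt:tRNA:T stood in the KahΔATG table only, so their level in KahΔZnF was not analysed here. The RNA came from w1118 embryos, the control strain that the labels call wild type, and from embryos of 2 mutants of Kahuli (Kah), a zinc-finger transcription factor of the Snail/Scratch family. KahΔATG carries a deletion that removes the start codon and KahΔZnF a deletion of the zinc-finger region, and both alleles were made by CRISPR/Cas9 in vasa-Cas9 embryos and recovered over balancers of chromosome 3. Embryos of every group were 5-16 h old when collected, with 3 biological replicates per genotype according to the labels. The methods give 1 embryo collection per genotype, so collection and genotype cannot be told apart, and p-values measure only the spread between these samples. In whole embryos, fewer cells of a type and less RNA per cell cannot be told apart either. Which mitochondrial lineage each stock carried, whether all mutant embryos were homozygous, and whether the libraries were made by poly(A) selection are not given in the sources used here.

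The animal mitochondrial genome is a small circle inherited through the egg, and its genes stand on both strands with little sequence between them. Long transcripts of each strand are made by a dedicated polymerase and cut into single RNAs, largely by removing the tRNAs that lie between the other genes. The mRNAs encode core subunits of respiratory complexes I, III, IV and V, and the rRNAs and tRNAs serve the organelle's own ribosome, while all other mitochondrial proteins come from nuclear genes. Of the 30 genes, 19 lay on the plus strand and 11 on the minus strand of the mitochondrial sequence in the deposited BDGP6 coordinates. The minus strand held both rRNA genes (mt:lrRNA from 12734 to 14058, mt:srRNA from 14131 to 14916) and mt:ND1, mt:ND4, mt:ND4L and mt:ND5. Neighbours often abut, as do mt:tRNA:G (5543 to 5607) and mt:ND3 (5608 to 5961), and mt:tRNA:L:CUN (12669 to 12733) and mt:lrRNA. In 5 pairs the genes overlapped by 1 to 8 bases (mt:ND2 with mt:tRNA:W, mt:tRNA:W with mt:tRNA:C, mt:ATPase8 with mt:ATPase6, mt:ATPase6 with mt:CoIII, and mt:ND4 with mt:ND4L). Only mt:tRNA:W and mt:tRNA:C overlapped on opposite strands, and the other pairs lay on the same strand. Neither the strand setting of the counting nor its handling of reads that reach more than a single gene is given in the sources used here. Reads on overlapping genes, and reads of genes whose opposite strand is also transcribed, are therefore uncertain.

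The libraries held between 17990440 and 20036762 reads on genes. In the 3 w1118 libraries the normalised count of Kah, the reads divided by a size factor set over all 9 libraries, was 368, 354 and 367. It was 1683, 1521 and 1591 in KahΔATG and 756, 666 and 753 in KahΔZnF, and a count over the whole gene does not show either deletion. All 10 embryo marker genes fixed for this work passed the filter on low values and 1 of 8 larval and adult markers did, so the tissue label was not contradicted. Of 5 maternal germ plasm RNAs, 4 were called higher in both mutants, where 14.7% of all genes tested were called higher in KahΔATG and 23.8% in KahΔZnF (medians of all 5 on the log2 scale, 1.61 and 2.06), and their part in the results was not tested. A pair of libraries stood apart from the other replicates of their genotype in mitochondrial reads, w1118 replicate 1 on the high side and KahΔZnF replicate 1 on the low side. Values without them are given for the changes in rRNA and mRNA levels, for the class sums, and for tRNA calls that leaving them out altered.

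Mitochondrial genes took a large and uneven part of the sequencing. In w1118 they held 16.3, 9.76 and 11.2% of the reads on genes in replicates 1, 2 and 3. The KahΔATG libraries lay close together at 16.5, 15.3 and 15.9%. The KahΔZnF libraries were split, with 8.67% in replicate 1 against 16.6 and 16.0% in the others. The lowest and the highest share therefore both belonged to KahΔZnF, and the range of each mutant overlapped that of w1118. Counting error was far smaller than these gaps, as the exact 95% binomial interval of the highest w1118 share ran from 16.308 to 16.341% and that of the lowest KahΔZnF share from 8.658 to 8.683%. Intervals here cover counting error only.

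**Figure D1:**
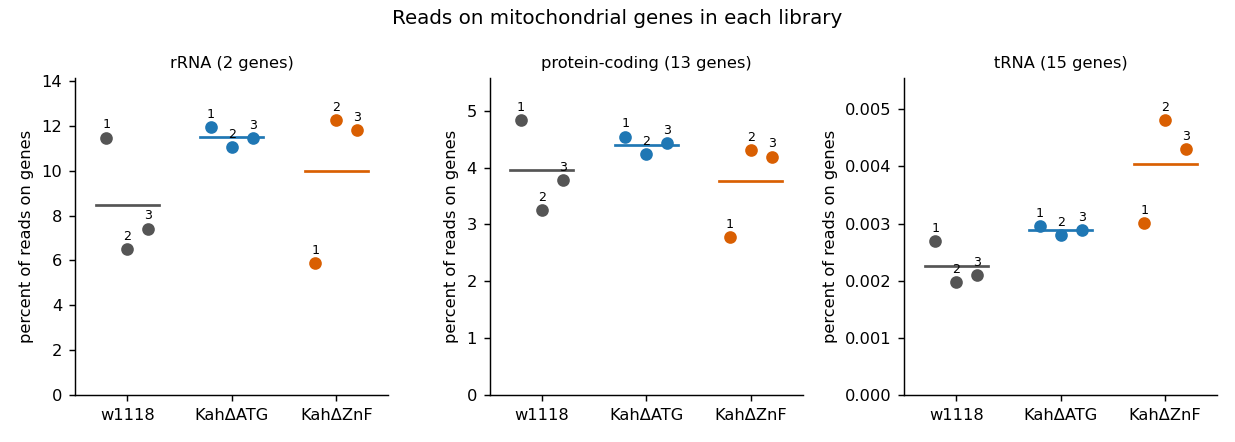
Percent of all reads on genes (y axes from 0) that fell on mitochondrial rRNA, protein-coding and tRNA genes, for each library (points, with the replicate number) by genotype (x axis), with the group mean as a line. The rRNA share was 11.5% in w1118 replicate 1 and 5.89% in KahΔZnF replicate 1, and the 3 KahΔATG libraries lay between 11.08 and 11.97%.

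Most of these reads came from a single RNA. The large rRNA mt:lrRNA, the RNA core of the large mitochondrial ribosomal subunit, made up 66.2 to 70.3% of the mitochondrial reads in w1118, 72.0 to 72.4% in KahΔATG and 67.9 to 73.9% in KahΔZnF. The small rRNA mt:srRNA, its partner in the small subunit, gave only 0.759 to 0.856 reads in w1118, 1.04 to 1.22 in KahΔATG and 0.750 to 1.05 in KahΔZnF for every 1000 reads on mt:lrRNA. Per kilobase of gene the mean normalised count in w1118 was 1153370 for mt:lrRNA and 1535 for mt:srRNA. Protein-coding genes held 3.25 to 4.84% of the reads on genes in w1118, 4.23 to 4.55% in KahΔATG and 2.77 to 4.31% in KahΔZnF. The tRNA genes together never passed 0.00482%, or 915 reads in a library.

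The spread between replicates was wide in w1118 and KahΔZnF and narrow in KahΔATG. The highest summed normalised count of all mitochondrial genes was 1.71 times the lowest in w1118, 1.10 times in KahΔATG and 2.04 times in KahΔZnF. For the rRNA genes these ratios were 1.80, 1.11 and 2.22, and for the protein-coding genes 1.53, 1.10 and 1.66. In both groups with a wide spread the rRNA sum differed more between replicates than the mRNA sum. The protein-coding genes moved as 1 block between replicates: all 13 had their highest value in w1118 replicate 1 and their lowest in w1118 replicate 2, and 12 of 13 had their lowest value in KahΔZnF replicate 1. The exception there was mt:ATPase8, whose highest value was in that library. By contrast 11 of the 13 peaked in KahΔATG replicate 1, with a median ratio of highest to lowest of only 1.14. Across all genes tested, the median standard deviation of log2(value + 1) between replicates was 0.143 in w1118, 0.103 in KahΔATG and 0.131 in KahΔZnF, with w1118 taken from the KahΔATG table. The median over the 13 protein-coding genes was 0.399, 0.0856 and 0.381 in the same order.

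Within w1118, subunit 1 and subunit 3 of cytochrome oxidase varied less than the other abundant mRNAs. The highest replicate was 1.39 times the lowest for mt:CoI and 1.296 times for mt:CoIII, against 1.70 for mt:CoII, 1.72 for mt:ATPase6, 1.70 for mt:Cyt-b and 1.74 for mt:ND4. In KahΔZnF the order differed, with 1.68 for mt:CoI and 1.83 for mt:CoIII against 1.66 for mt:CoII, 1.56 for mt:ATPase6 and 1.71 for mt:Cyt-b. The nuclear genes fixed as markers of mitochondrial content included porin and subunits of succinate dehydrogenase and ATP synthase. As a sum they did not split the libraries in the same way. Their summed normalised count was 136660, 140685 and 146939 in w1118, lowest in the replicate with the most mitochondrial reads. It was 103285, 104081 and 102853 in KahΔZnF. Single genes differed, as porin, SdhC, Tom20 and Hsp60 were highest in w1118 replicate 1 and lowest in KahΔZnF replicate 1. The other listed genes did not show both. Normalised counts of porin were 13346, 12221 and 12585 in w1118 and 9631, 11962 and 12070 in KahΔZnF.

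**Figure D2:**
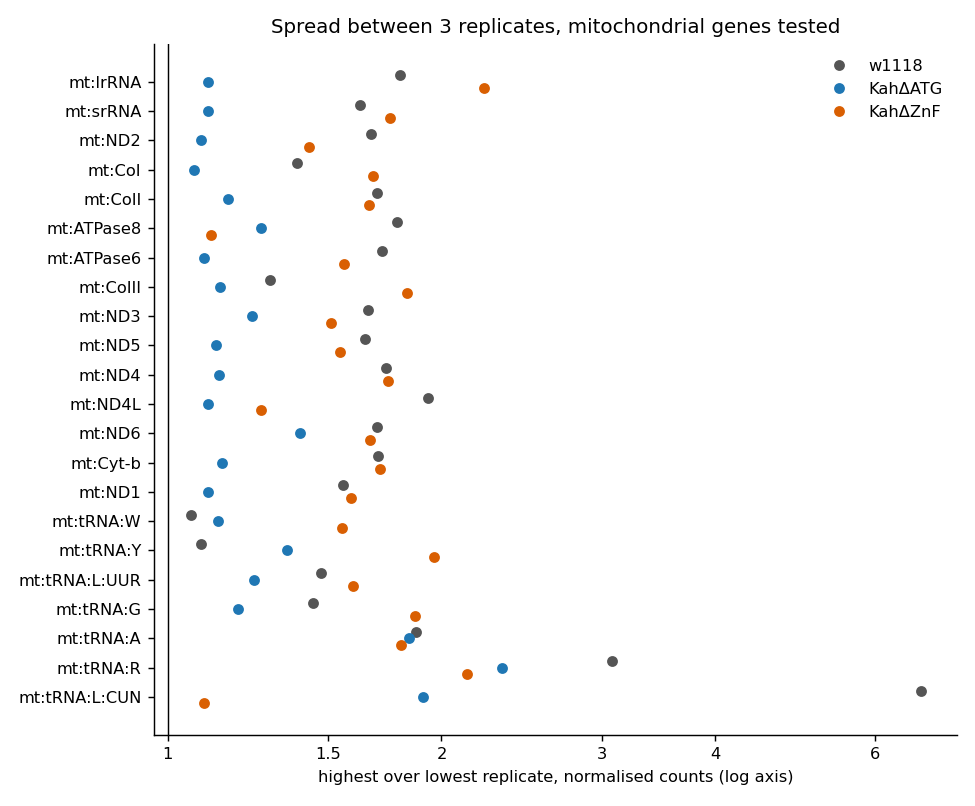
Ratio of the highest to the lowest of the 3 replicates of each genotype (log axis, no unit) for the 22 mitochondrial genes tested, computed on normalised counts. KahΔATG lies near 1 for rRNA and protein-coding genes, with a median of 1.14 over the 13 protein-coding genes against 1.70 in w1118 and 1.59 in KahΔZnF, and mt:tRNA:L:CUN in w1118 lies farthest to the right at 6.73 on counts of 7, 1 and 3 reads.

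Read counts differed widely between the protein-coding genes. They are not levels of single transcripts, since mt:ATPase8 and mt:ATPase6, and mt:ND4 and mt:ND4L, overlap on the same strand. How reads that reach into a neighbour were counted is not given in the sources used here. Per kilobase and over all 9 libraries, the mean normalised count was highest for mt:CoIII at 176800, followed by mt:CoI at 141617, mt:Cyt-b at 108264, mt:CoII at 106480 and mt:ATPase6 at 85746. A middle group of complex I subunits followed, with mt:ND1 at 44998, mt:ND3 at 40673, mt:ND5 at 28683 and mt:ND4 at 27505. The lowest were mt:ND2 at 7664, mt:ND4L at 4897, mt:ND6 at 1155 and mt:ATPase8 at 90.8. The ranges over the 9 libraries overlapped between neighbours in this order, with 4 exceptions. They did not meet between mt:ATPase6 and mt:ND1, between mt:ND4 and mt:ND2, between mt:ND4L and mt:ND6, or between mt:ND6 and mt:ATPase8.

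Each mutant was then compared with w1118 gene by gene. The comparison used limma on log2(value + 1) of the deposited values. Calls needed an adjusted p (Benjamini-Hochberg, over every gene tested) no higher than 0.05 together with a change no smaller than 0.59 on the log2 scale. Genes had to reach 10 in 3 or more of 6 libraries to be tested, which kept both rRNA genes, all 13 protein-coding genes and 7 tRNA genes, or 22 of 30. The other 8 tRNA genes never passed 11 reads in a library. In KahΔATG, 4 of the 22 were called higher and 0 lower (9 had an unadjusted p under 0.05), in a comparison that called 25.3% of all genes tested, 14.7% higher and 10.6% lower. In KahΔZnF, 6 were called higher and 0 lower (8 had an unadjusted p under 0.05), where 49.3% of all genes were called, 23.8% higher and 25.5% lower. DESeq2 on the recovered reads called 4 and 5 members, against 24.8 and 48.4% of all genes. In both comparisons the share of members called was below that of all genes, so the counts say nothing particular about the members. Without w1118 replicate 1 the KahΔATG count became 9, with mt:lrRNA, mt:ATPase6, mt:ATPase8, mt:ND4L and mt:tRNA:R in addition, and without KahΔATG replicate 1 it became 2. All but 1 of the calls were rRNA or tRNA genes, and mt:ATPase8 in KahΔZnF was the only mRNA among them. In w1118 mt:tRNA:L:CUN was below 10 in all libraries and passed the filter only through the mutants where it was high, so its calls are a description only, and 3 and 5 calls remained without it. Likewise the w1118 normalised counts were 11.8, 6.59 and 8.80 for mt:ATPase8 and 14.5, 4.71 and 12.7 for mt:tRNA:R. Both needed mutant libraries, where they were higher, to pass the filter, so their calls are also a description only. The 5 calls left in KahΔZnF include both. The same w1118 libraries served both comparisons.

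**Figure D3:**
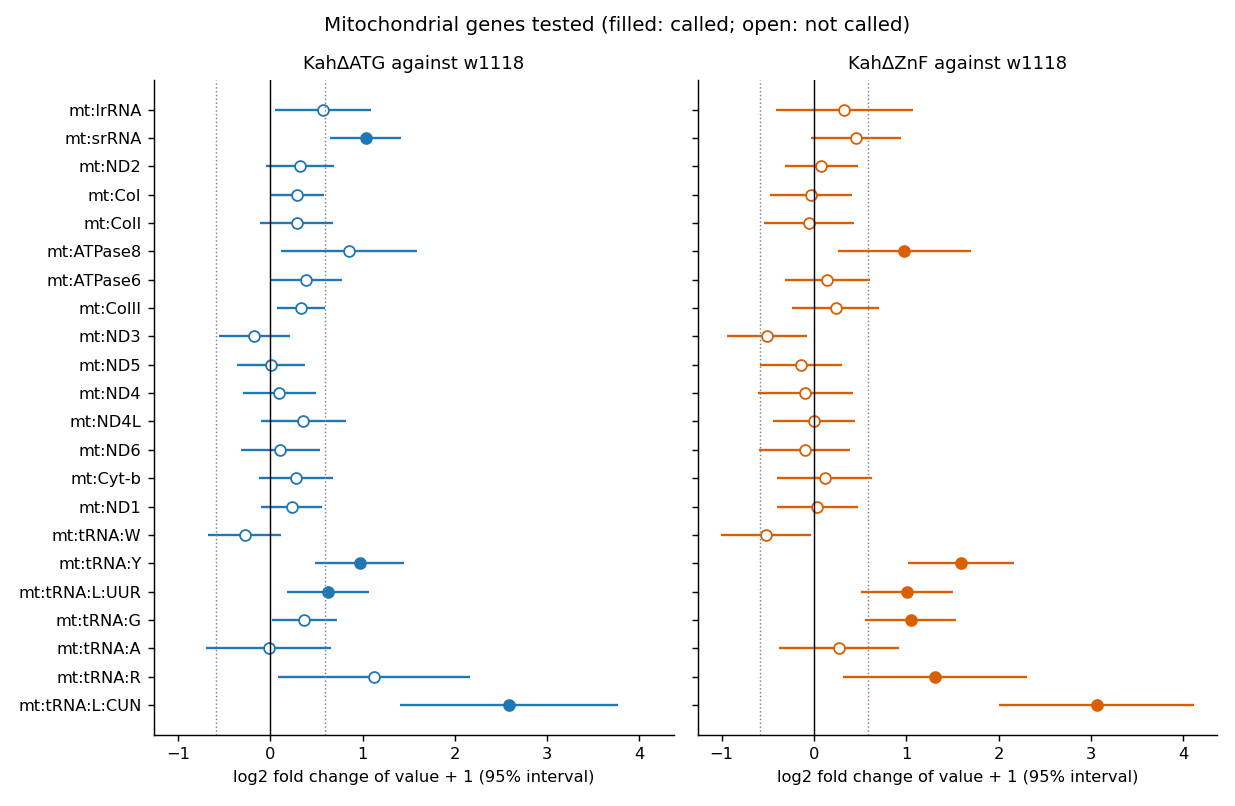
log2 fold change of value + 1 against w1118 (x axis, points) with its 95% interval from limma (lines) for the 22 mitochondrial genes tested, KahΔATG on the left and KahΔZnF on the right; filled points were called and dotted lines mark a change of 0.59 in size. The called genes all lie on the right of 0, and among the protein-coding genes only mt:ATPase8 in KahΔZnF is filled. The mt:tRNA:L:CUN points belong to a gene that passed the filter only through the mutants, and mt:ATPase8 and mt:tRNA:R also needed mutant libraries to pass it.

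The large rRNA did not pass the test in either mutant. Its percent of all reads on genes was 11.5, 6.51 and 7.42 in w1118, 11.96, 11.1 and 11.4 in KahΔATG, and 5.89, 12.3 and 11.8 in KahΔZnF. The log2 fold change of mt:lrRNA was 0.57 ± 0.23 (SE; limma adjusted p = 0.0675) in KahΔATG and 0.33 ± 0.33 (adjusted p = 0.403) in KahΔZnF, with 95% intervals from 0.04 to 1.09 and from -0.42 to 1.07. Without w1118 replicate 1 the KahΔATG difference became 0.83 and was called, and without KahΔZnF replicate 1 the KahΔZnF difference became 0.71 and was called, so 1 library decided each result. These are the highest w1118 and the lowest KahΔZnF library, so the rise was fixed in advance. Over all single omissions the difference ran from 0.38 to 0.83 in KahΔATG and from 0.13 to 0.71 in KahΔZnF. Over the alternatives tried, the adjusted p of mt:lrRNA ran from 0.00142 to 0.233 in KahΔATG and from 0.0235 to 0.779 in KahΔZnF. The small rRNA behaved differently. Normalised counts of mt:srRNA were 1608, 989 and 1023 in w1118, 2395, 2521 and 2275 in KahΔATG, and 1151, 2020.3 and 1784 in KahΔZnF. All KahΔATG libraries lay above the highest w1118 library, while the KahΔZnF range overlapped it. The log2 fold change was 1.03 ± 0.17 (limma adjusted p = 0.000939) in KahΔATG, called under all 17 alternatives, and 0.45 ± 0.22 (adjusted p = 0.089) in KahΔZnF. That KahΔZnF difference was called without KahΔZnF replicate 1 (0.70) and without w1118 replicate 1 (0.68), with adjusted p from 0.00327 to 0.322 over the alternatives. Over all single omissions it ran from 0.29 to 0.70. Nuclear rRNA genes and pseudogenes, read here as a sum, had normalised counts of 861, 1221 and 719 in w1118, 1005, 3103 and 1045 in KahΔATG and 447, 403 and 521 in KahΔZnF, and their part in the result was not tested.

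Of the 13 mRNAs, 0 were called in KahΔATG by limma (2 had an unadjusted p under 0.05, and DESeq2 also called 0). The median log2 fold change was 0.29, against -0.02 over all genes tested. In KahΔZnF the median was 0.00, the same as over all genes, and 1 gene was called higher. Without w1118 replicate 1, which had the highest w1118 value for each of these genes, mt:ATPase6 (0.62, limma adjusted p = 8.38e-05), mt:ND4L (0.63, adjusted p = 0.000174) and mt:ATPase8 (1.05, adjusted p = 0.033) were called higher in KahΔATG. In that fit 7 others passed the adjusted p but not the fold limit: mt:ND2 at 0.54 (adjusted p = 9.82e-05), mt:CoII at 0.52 (0.000462), mt:Cyt-b at 0.51 (0.000723), mt:ND1 at 0.41 (0.00183), mt:CoIII at 0.43 (0.00235), mt:CoI at 0.41 (0.00566) and mt:ND4 at 0.32 (0.011). The other 3, mt:ND3, mt:ND5 and mt:ND6, were at 0.05, 0.21 and 0.32. All 13 changes were higher in that fit than with every library included, which leaving out the highest w1118 library fixes in advance. Without w1118 replicate 2, which was lowest for all 13, none of them was called. There mt:ND2 was at 0.15 (limma adjusted p = 0.422), mt:CoI at 0.16 (0.313) and mt:CoII at 0.11 (0.601). In KahΔZnF, leaving out KahΔZnF replicate 1 moved mt:CoIII to 0.52 (limma adjusted p = 0.00378), a rise fixed in advance by leaving out its lowest library. Over all single omissions mt:CoIII ran from 0.08 to 0.52. Without KahΔZnF replicate 1 mt:ATPase8 moved to 0.93 (limma adjusted p = 0.0596) and was no longer called. There the adjusted p of the other 11 mRNAs ran from 0.114 to 0.793.

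Cytochrome oxidase, complex IV, takes its catalytic core from mt:CoI, mt:CoII and mt:CoIII. Normalised counts of mt:CoI, the haem-bearing subunit, were 236033, 170146 and 206307 in w1118, 253353, 236855 and 247468 in KahΔATG, and 142402, 225803 and 239348 in KahΔZnF. Those of mt:CoII were 91657, 53938 and 63053 in w1118, 88062, 75606 and 83621 in KahΔATG, and 47704, 79386 and 73423 in KahΔZnF. For mt:CoIII they were 136317, 105163 and 121653 in w1118, 148286, 141975 and 162259.9 in KahΔATG, and 95578, 175306 and 168920.3 in KahΔZnF. The KahΔATG libraries lay above all w1118 libraries for mt:CoI and mt:CoIII, and overlapped them for mt:CoII. With log2 fold changes of 0.29 ± 0.13 (limma adjusted p = 0.095) for mt:CoI and 0.33 ± 0.12 (adjusted p = 0.0383) for mt:CoIII, both stayed under the fold limit. For each of the 3 genes KahΔZnF replicate 1 lay below all w1118 libraries and the other KahΔZnF libraries lay within or above their range, and no change in KahΔZnF exceeded 0.24 in size with all libraries in the fit, while that of mt:CoIII was 0.52 without KahΔZnF replicate 1.

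The cytochrome b of complex III is encoded by mt:Cyt-b, whose normalised counts were 149269.6, 87705 and 102605 in w1118, 143141, 124631 and 132002 in KahΔATG, and 84436, 144593 and 139485 in KahΔZnF. The ranges of all 3 genotypes overlapped, with log2 fold changes of 0.28 ± 0.18 (limma adjusted p = 0.225) and 0.12 ± 0.23 (adjusted p = 0.667). ATP synthase, complex V, takes 2 membrane subunits from the mitochondrial genome. The gene mt:ATPase6 had normalised counts of 68186, 39630.1 and 47128 in w1118, 69513, 63425 and 63656 in KahΔATG, and 42064, 65692 and 61614 in KahΔZnF. These overlapped between w1118 and each mutant. Its upstream neighbour mt:ATPase8, which shares 7 bases with it, was counted at only 11.8, 6.59 and 8.80 in w1118, 18.7, 16.7 and 14.8 in KahΔATG, and 19.6, 17.8 and 17.6 in KahΔZnF. All mutant libraries lay above the w1118 libraries. The log2 fold change was 0.85 ± 0.33 (limma adjusted p = 0.0534) in KahΔATG, short of the threshold, and 0.98 ± 0.33 (adjusted p = 0.0199) in KahΔZnF, a call that DESeq2 did not make (adjusted p = 0.0649) and that was also lost without KahΔZnF replicate 1 or w1118 replicate 2. Adjusted p ran from 0.0102 to 0.0824 over the alternatives for that gene in KahΔZnF, and its counts were 7 to 21 reads in a library. The gene mt:ATPase8 needed mutant libraries to pass the filter, so its call is a description only.

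Complex I takes 7 subunits from these genes. The plus-strand gene mt:ND2 had normalised counts of 9422, 5629.8 and 6662 in w1118, 9079, 9047 and 8336 in KahΔATG, and 6299.7, 8999.9 and 7295 in KahΔZnF. For mt:ND3, next to mt:tRNA:G, they were 22069, 13293 and 15283 in w1118, 16005, 12927 and 14847 in KahΔATG, and 8828, 13343 and 12988 in KahΔZnF. Counts of mt:ND6, a weakly represented mRNA, were 785, 462 and 579 in w1118, 759, 543 and 626 in KahΔATG, and 394, 652 and 657 in KahΔZnF. Among these, mt:ND3 had the lowest fitted changes of all mRNAs in both comparisons, -0.18 ± 0.17 (limma adjusted p = 0.419) in KahΔATG and -0.51 ± 0.19 (adjusted p = 0.0358) in KahΔZnF, the latter under the fold limit. It passed that limit and was called lower in 5 of 17 alternatives, with changes of -0.63 and -0.61 under scaling by total reads with and without the mitochondrial genes, -0.62 and -0.60 without KahΔZnF replicate 2 or 3, and -0.67 without w1118 replicate 2 (adjusted p from 0.0071 to 0.138 over all alternatives). Its libraries overlapped those of w1118 in both. On the minus strand, normalised counts of mt:ND1 were 49273, 31588 and 38736 in w1118, 48105, 43488 and 46075 in KahΔATG, and 29619, 46293 and 47101 in KahΔZnF. Those of mt:ND5, the longest mRNA gene, were 65549, 39774 and 48903 in w1118, 53973, 47765 and 49417 in KahΔATG, and 34072, 52753 and 52578 in KahΔZnF. The values of mt:ND4 were 48482, 27905 and 34882 in w1118, 41317, 36251 and 38043 in KahΔATG, and 23553, 41116 and 39909 in KahΔZnF. Its overlapping partner mt:ND4L gave 1849, 958 and 1205 in w1118, 1571, 1739 and 1626 in KahΔATG, and 1168, 1478 and 1231 in KahΔZnF. All 4 overlapped between each mutant and w1118, and none was called. Their log2 fold changes lay between 0.01 and 0.36 in KahΔATG and between -0.14 and 0.04 in KahΔZnF.

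The tRNA genes held most of the calls. Of the 7 tested, 3 were called higher in KahΔATG and 5 in KahΔZnF, and 0 were called lower. Over all genes 14.7 and 23.8% were called higher. Both counts include mt:tRNA:L:CUN, and that of KahΔZnF also mt:tRNA:R, which needed mutant libraries to pass the filter. Their being called higher was thus favoured in advance, and the counts show no excess of calls among the tRNA genes. The summed normalised count of all tRNA genes was 407 ± 73.2 (SD, n = 3) in w1118, 549 ± 21.3 in KahΔATG and 794 ± 209 in KahΔZnF. Neither mutant's libraries overlapped w1118 for that sum. Nuclear RNAs that mostly lack a poly(A) tail (snRNA, snoRNA, scaRNA, replication-dependent histone and similar genes) had summed normalised counts of 1494 to 1595 in w1118, 1864 to 2006 in KahΔATG and 1663 to 1927 in KahΔZnF. Single genes of that list went both ways, with 6 called higher and 1 lower of 48 tested in KahΔATG and 8 higher and 5 lower of 46 in KahΔZnF, and their part in the result was not tested.

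Reads on a tRNA gene can come from the cut tRNA or from uncut transcripts that run through it, and these were not told apart here. Values for tRNA genes are therefore reads on the gene and not levels of the finished tRNA. The tRNA gene with the most reads was mt:tRNA:G, for the glycine tRNA, which lies between mt:CoIII and mt:ND3. Its normalised counts were 236, 164 and 180.0 in w1118, 230.1, 235 and 275 in KahΔATG, and 272, 508 and 444 in KahΔZnF. The KahΔZnF libraries all lay above w1118, even in replicate 1 where most other mitochondrial RNAs were low, and the KahΔATG libraries overlapped w1118. The log2 fold change was 1.05 ± 0.22 (limma adjusted p = 0.00158) in KahΔZnF, kept under all 17 alternatives, and 0.37 ± 0.16 (adjusted p = 0.0789) in KahΔATG. Next came mt:tRNA:L:UUR, a leucine tRNA between mt:CoI and mt:CoII, with normalised counts of 83.3, 56.5 and 58.7 in w1118, 109, 105 and 87.9 in KahΔATG, and 97.1, 152 and 155 in KahΔZnF. Both mutants lay above w1118 throughout. The change was 1.01 ± 0.22 (limma adjusted p = 0.00217) in KahΔZnF, also kept under all 17 alternatives. In KahΔATG it was 0.62 ± 0.20 (adjusted p = 0.0247), close to the fold limit, and the call was lost under 5 of 17 alternatives, with adjusted p from 0.00221 to 0.094; these were scaling by total reads and leaving out replicate 1 or 2 of KahΔATG or replicate 2 or 3 of w1118. For the alanine tRNA mt:tRNA:A the values were 70.6, 37.7 and 44.0 in w1118, 61.4, 33.4 and 54.3 in KahΔATG, and 40.2, 71.1 and 72.5 in KahΔZnF. Those libraries overlapped in both comparisons, and it was called in neither.

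Outside the 3 tRNA genes with the most reads, mt:tRNA:Y and mt:tRNA:L:CUN were looked at singly after their values had been seen. The tyrosine tRNA mt:tRNA:Y, on the minus strand, had normalised counts of 23.5, 21.7 and 23.5 in w1118, 46.8, 52.1 and 38.5 in KahΔATG, and 48.6, 76.4 and 95.3 in KahΔZnF. Its w1118 libraries held only 26, 23 and 24 reads, while the mitochondrial reads of these libraries differed 1.71-fold. At so few reads their agreement was within counting error, and whether the gene followed the mitochondrial share was not tested. All mutant libraries were higher. The log2 fold change was 0.97 ± 0.21 (limma adjusted p = 0.00467) in KahΔATG and 1.59 ± 0.26 (adjusted p = 0.000268) in KahΔZnF, and all 17 alternatives kept both calls. The second leucine tRNA, mt:tRNA:L:CUN, which abuts mt:lrRNA, had 7, 1 and 3 reads in w1118, 29, 21 and 16 in KahΔATG and 34, 30 and 28 in KahΔZnF. It passed the filter only through the mutant libraries, so these reads are given without a test. With any 1 library of the mutant left out it no longer passed. The arginine tRNA mt:tRNA:R was at 5 to 16 reads in w1118, 13 to 32 in KahΔATG and 19 to 40 in KahΔZnF. It was called in KahΔZnF (1.31 ± 0.45, limma adjusted p = 0.0229) but not without KahΔZnF replicate 2 or w1118 replicate 2. As it needed mutant libraries to pass the filter, that call is a description only. The tryptophan tRNA mt:tRNA:W went the other way, at 48.0 to 50.9 normalised counts in w1118, 38.5 to 43.8 in KahΔATG and 26.9 to 41.9 in KahΔZnF. No library of either mutant reached the w1118 range, but the changes of -0.28 ± 0.18 (adjusted p = 0.217) and -0.52 ± 0.22 (adjusted p = 0.054) were not called. In KahΔZnF it was called lower in 3 of 17 alternatives, under both scalings by total reads and without KahΔZnF replicate 2 (-0.66, adjusted p = 0.034; range from 0.0249 to 0.19). The 8 untested tRNA genes held between 2 and 40 reads each over all libraries in which they were listed.

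KahΔZnF and KahΔATG stand in separate tables, so they were set against each other after joint scaling of the reads recovered from both. In KahΔZnF against KahΔATG, 2 of the 22 members were called higher and 0 lower, where 18.6% of all genes tested were called, 5.68% higher and 12.9% lower (2 members and 17.8% of all genes by DESeq2). These were mt:tRNA:G (0.68 ± 0.19, limma adjusted p = 0.009) and mt:tRNA:Y (0.63 ± 0.24, adjusted p = 0.048). For both the mutants overlapped, as KahΔZnF replicate 1 lay within the KahΔATG range. The mt:tRNA:G call was lost in 1 of 17 alternatives, without KahΔZnF replicate 2 (adjusted p = 0.0519; range from 3.996e-05 to 0.0519), and the mt:tRNA:Y call in 13 of 17 (adjusted p from 0.00447 to 0.204). By contrast mt:srRNA was lower in KahΔZnF in all libraries, with a difference of -0.58 ± 0.16 (adjusted p = 0.00838) just under the fold limit and past it in 7 of 17 alternatives, and mt:ND4L was -0.35 ± 0.09 (adjusted p = 0.00643). The other 11 mRNAs and mt:ATPase8 had intervals that reached from -0.71 to 0.75 at their widest. Without KahΔZnF replicate 1, 3 members were called, mt:tRNA:L:UUR in addition, and without KahΔZnF replicate 2 or without KahΔATG replicate 1 or 2 there was 1.

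Summed by class, the mutants and w1118 overlapped for rRNA and mRNA and were apart for tRNA. The summed rRNA level was 0.56 higher on the log2 scale in KahΔATG than in w1118 and 0.32 higher in KahΔZnF, and that of the mRNAs was 0.25 and 0.03 higher. All 4 of these comparisons had overlapping libraries. Without w1118 replicate 1 the KahΔATG differences became 0.81 for rRNA and 0.41 for mRNA, and without KahΔZnF replicate 1 the KahΔZnF differences became 0.70 and 0.27. For tRNA the differences were 0.45 in KahΔATG and 0.94 in KahΔZnF, and 0.59 and 1.18 under the same omissions. These omissions take out the highest w1118 or the lowest KahΔZnF library, which fixes the rise in advance. Over all single omissions the rRNA difference ran from 0.38 to 0.81 in KahΔATG and from 0.13 to 0.70 in KahΔZnF. That of the mRNAs ran from 0.11 to 0.41 and from -0.11 to 0.27, and that of tRNA from 0.34 to 0.59 and from 0.79 to 1.18. With 3 libraries against 3, an exact two-sided permutation test of such a value cannot go below p = 0.1, so these differences are given without a test.

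Reads on the rRNA and tRNA genes were also set against the reads on the 13 protein-coding genes of the same library, called the mRNA pool here. For each mRNA read there were 2.37, 2.00 and 1.96 reads on mt:lrRNA in w1118, 2.63, 2.61 and 2.58 in KahΔATG and 2.12, 2.85 and 2.82 in KahΔZnF. The KahΔATG ratios all lay above w1118. Of the KahΔZnF ratios, that of replicate 1 lay within the w1118 range and the others above it. The 2 libraries that stood apart did so here too, since w1118 replicate 1 had the highest ratio of its group and KahΔZnF replicate 1 the lowest. These libraries also had the highest mitochondrial share of w1118 and the lowest of KahΔZnF, and the part of that share in the ratios was not tested.

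Small rRNA reads per 1000000 reads of the pool were 1829, 1716 and 1489 in w1118, 2743, 3174 and 2683 in KahΔATG, and 2229.7, 2362 and 2112 in KahΔZnF. Here the 3 genotypes did not overlap, with w1118 lowest and KahΔATG highest. For mt:tRNA:G the ratio was 269, 284 and 262 in w1118, 263, 295 and 324 in KahΔATG, and 527, 594 and 526 in KahΔZnF. The KahΔZnF values were 2.02 times those of w1118 on average, and those of KahΔATG overlapped w1118. The ratio of mt:tRNA:L:UUR was 94.8, 98.0 and 85.4 in w1118, 125, 133 and 104 in KahΔATG, and 188, 177 and 184 in KahΔZnF, and the ratio of mt:tRNA:Y was 26.8, 37.6 and 34.2 in w1118, 53.7, 65.6 and 45.4 in KahΔATG, and 94.1, 89.3 and 113 in KahΔZnF. Both stepped up from w1118 to KahΔATG and again to KahΔZnF with no overlap between any of the 3 genotypes. On this scale KahΔZnF replicate 1 no longer stood apart from the other KahΔZnF libraries for these tRNAs, as the plots of reads per mRNA read show. For mt:tRNA:L:CUN it was the highest of its group at 61.5, against 36.7 and 34.3. Other tested tRNA genes did not step up in this way. The ratio of mt:tRNA:A, with means of 69.9, 58.8 and 82.3, overlapped w1118 in both mutants. That of mt:tRNA:W, with means of 71.8, 48.6 and 49.9, also overlapped in both, unlike its levels. The ratio of mt:tRNA:R overlapped w1118 in KahΔATG and lay above it in KahΔZnF.

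**Figure D4:**
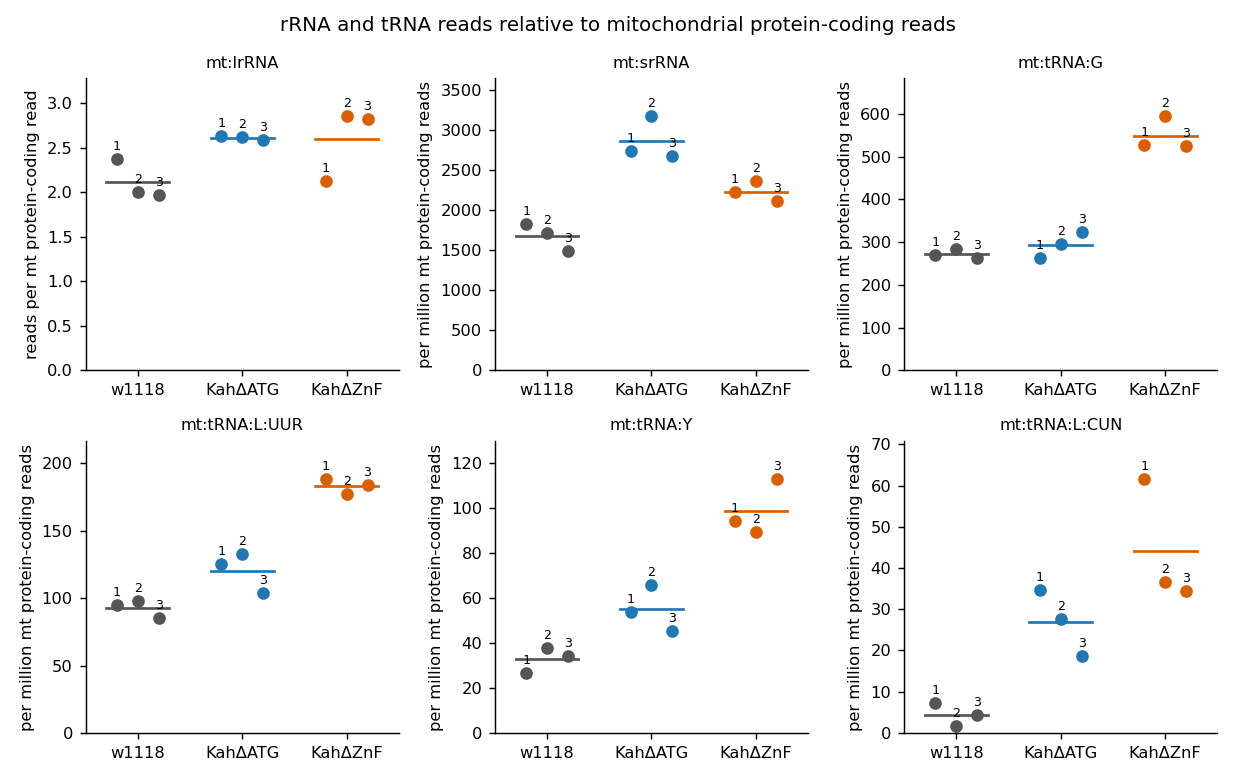
Reads on 6 rRNA and tRNA genes relative to the reads on mitochondrial protein-coding genes of the same library (y axes from 0; per read for mt:lrRNA, per 1000000 reads for the others), for each library (points, with the replicate number) by genotype, with the group mean as a line. The mt:tRNA:G ratio lies at 526 to 594 in KahΔZnF against 262 to 284 in w1118, and mt:srRNA is highest in KahΔATG. Not shown are mt:tRNA:A and mt:tRNA:W, whose ratios overlapped w1118 in both mutants, and mt:tRNA:R.

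Within the mRNA pool, the shares of 4 of the 13 genes did not overlap between KahΔATG and w1118 and those of 6 did not between KahΔZnF and w1118. In levels, a different measure from shares within 13 genes, 58.2 and 74.5% of all genes tested did not overlap. In levels 3 of the 13 mRNAs did not overlap in KahΔATG and 1 in KahΔZnF, all higher than w1118. The counts therefore show nothing particular to the mRNAs. The largest ratio of mean shares was that of mt:ATPase8, 1.59 in KahΔATG and 2.12 in KahΔZnF, on 7 to 21 reads in a library. Genes with a lower share in both mutants were mt:ND3, mt:ND5 and mt:ND4, all of complex I. The share of mt:ND3 in the pool was 2.51, 2.31 and 2.22% in w1118, 1.83, 1.63 and 1.75% in KahΔATG, and 1.71, 1.56 and 1.54% in KahΔZnF. The share of mt:ND5 was 7.46, 6.90 and 7.12% in w1118, 6.18, 6.01 and 5.83% in KahΔATG, and 6.60, 6.17 and 6.23% in KahΔZnF. That of mt:ND4 was 5.52, 4.84 and 5.08% in w1118, 4.73, 4.56 and 4.49% in KahΔATG, and 4.56, 4.81 and 4.73% in KahΔZnF. For each of these genes every mutant library was below every w1118 library. The mean share of mt:ND3 was 0.74 times that of w1118 in KahΔATG and 0.68 times in KahΔZnF, that of mt:ND5 0.84 and 0.88 times, and that of mt:ND4 0.89 and 0.91 times. Leaving out any 1 library kept the direction, with log2 ratios of mt:ND3 from -0.47 to -0.38 in KahΔATG and from -0.60 to -0.50 in KahΔZnF. In contrast mt:ND1, also a complex I gene of the minus strand, held 5.61, 5.48 and 5.64% in w1118, 5.51, 5.48 and 5.43% in KahΔATG, and 5.74, 5.41 and 5.58% in KahΔZnF, with overlap throughout. The other complex I genes mt:ND2 and mt:ND4L also overlapped in both mutants, at 1.05 and 1.07 times the mean w1118 share in KahΔATG and 1.04 and 0.99 times in KahΔZnF, and mt:ND6 was lower without overlap in KahΔZnF only.

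**Figure D5:**
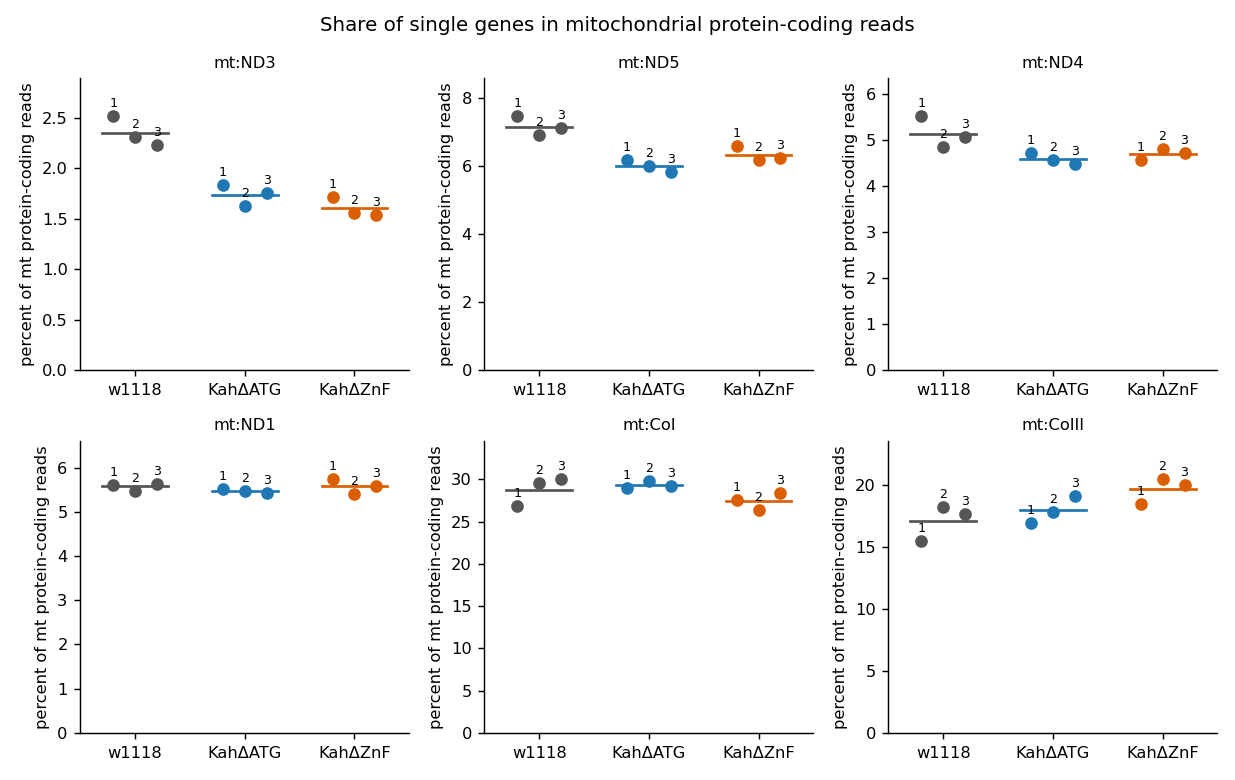
Share of 6 genes in the reads on all mitochondrial protein-coding genes (y axes in percent, from 0) for each library (points, with the replicate number) by genotype, with the group mean as a line. The 6 mutant libraries lie below the 3 w1118 libraries for mt:ND3 (1.54 to 1.83% against 2.22 to 2.51%), mt:ND5 and mt:ND4, and the genotypes overlap for mt:ND1.

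Together the 7 complex I genes made up 20.8 to 22.5% of the pool in w1118, 18.7 to 19.6% in KahΔATG and 19.2 to 20.1% in KahΔZnF. The 4 minus-strand genes, all of complex I, made up 17.4 to 18.8%, 15.9 to 16.6% and 16.6 to 17.1% in the same order. Both sums contain mt:ND5 and mt:ND4, and the first also mt:ND3. They therefore repeat the lower shares of these genes and are no separate result for complex I or the strand. The complex IV genes overlapped, at 52.8 to 57.1%, 56.1 to 58.2% and 55.4 to 57.0%. Of the other genes, mt:CoIII had a higher share in KahΔZnF, at 18.5 to 20.5% against 15.5 to 18.3% in w1118, and mt:ATPase8 a higher one in both mutants at very low counts. With 3 libraries a group, an exact permutation test of a share cannot go below p = 0.1. Taken as shares of all mitochondrial reads, mt:lrRNA included, 9 of the 13 mRNAs were lower in KahΔATG and 5 in KahΔZnF with no overlap, so on that scale the lower shares were not confined to mt:ND3, mt:ND5 and mt:ND4. Their log2 ratios were -0.65, -0.47 and -0.38 in KahΔATG and -0.74, -0.37 and -0.33 in KahΔZnF. In KahΔATG the others were mt:ND2, mt:CoII, mt:ATPase6, mt:ND6, mt:Cyt-b and mt:ND1, and in KahΔZnF mt:CoII and mt:ND6.

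The nuclear genes that make and process these RNAs were read from lists fixed for this work. Their counts of calls stand beside 14.7% of all genes called higher and 10.6% lower in KahΔATG, and 23.8% higher and 25.5% lower in KahΔZnF. The mitochondrial RNA polymerase mtRNApol had mean normalised counts of 779 in w1118, 744 in KahΔATG and 847 in KahΔZnF and was called in neither mutant (-0.06, limma adjusted p = 0.557, and 0.13, adjusted p = 0.238). Genes named here beyond mtRNApol, TFAM, bsf and those called alike in both mutants were picked after their values had been seen. TFAM, which packages mitochondrial DNA and starts its transcription, had means of 1129, 1404 and 1823, and was called higher in KahΔZnF only (0.69, adjusted p = 7.51e-05; 0.32 in KahΔATG, adjusted p = 0.00946). The difference between the mutants was 0.37 (adjusted p = 0.00207), under the fold limit. Of 6 transcription genes listed, 0 were called in KahΔATG (by DESeq2 also 0) and 2 in KahΔZnF, the other being the termination factor mTTF (0.71, adjusted p = 7.87e-05). The 9 listed genes of mitochondrial RNA processing and decay gave 0 calls in either mutant, by limma and by DESeq2. Among them bicoid stability factor (bsf), which in flies binds and stabilises mitochondrial mRNAs, had mean normalised counts of 2335, 1759 and 1789, and its changes of -0.40 (adjusted p = 0.000415) and -0.38 (adjusted p = 0.00225) stayed under the fold limit.

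Of 14 mitochondrial aminoacyl-tRNA synthetase genes, which charge the tRNAs, 2 were called higher in both mutants and 0 lower, a share no larger than that of all genes called higher (14.7 and 23.8%), and the list medians were -0.13 in both. These were the aspartate enzyme CG31739 (AspRS-m), with means of 1449, 2604 and 3268, and the glutamate enzyme CG4573 (GluRS-m), with 79.2, 146 and 182. Their log2 fold changes were 0.85 (limma adjusted p = 2.91e-05) and 1.18 (adjusted p = 2.99e-06) for CG31739, and 0.89 (adjusted p = 0.00167) and 1.199 (adjusted p = 9.77e-05) for CG4573. Of 5 genes of mitochondrial DNA replication, the polymerase subunit tam was called higher in KahΔZnF only (1.02, adjusted p = 5.55e-05) and mtDNA-helicase lower in KahΔATG only (-0.67, adjusted p = 0.000993). For tam the mutants also differed from each other (1.04, adjusted p = 5.58e-05), and for mtDNA-helicase the difference between them was 0.47 (adjusted p = 0.0065), under the fold limit. The 14 nuclear genes of mitochondrial content gave 0 higher and 2 lower calls in KahΔATG and 1 higher and 5 lower in KahΔZnF, with medians of -0.35 and -0.46 against -0.02 and 0.00 over all genes. Called either way, these are no larger shares than the 25.3 and 49.3% of all genes. Here blw and ATPsyn-beta, the nuclear alpha and beta subunits of ATP synthase, were among those called lower in KahΔZnF (-0.81, adjusted p = 7.57e-05, and -0.80, adjusted p = 7.48e-06). The median of the mitochondrially encoded mRNAs in the same comparison was 0.00.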

How the data were processed

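RNA was total RNA of whole embryos, sequenced in paired ends. Per the labels and methods, the authors aligned reads with HISAT2 2.0.5 to BDGP6, counted them per gene with featureCounts 1.5.0-p3 (strand setting not given in the sources used here) and used DESeq2 1.20.0. The deposited values are signal values: read numbers per gene after division by a DESeq2 size factor, set separately in each of the 2 tables. All values (100%) came out as whole reads within 0.001 reads, and the w1118 reads of both tables were the same for all 14306 shared genes. Gene lengths and coordinates are those deposited. Columns of the authors' own fold changes and p-values were not used.

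Each mutant was compared with w1118 by limma 3.58.1 (R 4.3.3) with trend on log2(value + 1), over genes at 10 or more in at least 3 of 6 libraries. The mutants were compared on recovered reads scaled together. Printed per-library normalised counts are reads divided by size factors set over all 9 libraries. Scripts were tested on simulated data. Values in every library are given for the rRNA and protein-coding genes and the 3 tRNA genes with the highest mean count. Other tRNA genes are given by range unless said otherwise. Alternatives were DESeq2 1.42.0, edgeR 4.0.16, other scalings, filters and pseudocounts, a replicate block, and leaving out each library. The members and gene lists were chosen with earlier results of these data known. Of 30 genes, 16 had the same coordinates in the reference annotation (BDGP6.54) and 14 differed by up to 7 bases.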

Additional observations from a re-analysis of the deposited data

Results flagged for a closer look

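The difference between the mutants passed its own test for 2 tRNA genes. The glycine tRNA mt:tRNA:G was 0.68 higher on the log2 scale in KahΔZnF than in KahΔATG, and the tyrosine tRNA mt:tRNA:Y was 0.63 higher. In both genes 2 of the 3 KahΔZnF libraries lay above all KahΔATG libraries, and KahΔZnF replicate 1 did not. The mt:tRNA:G call was kept in 16 of 17 alternatives and the mt:tRNA:Y call in only 4 of 17.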

How the results depend on the processing

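Of 17 alternatives per comparison, 11 changed a setting and 6 left out 1 library. The number of members called ran from 2 to 9 in KahΔATG, from 5 to 7 in KahΔZnF and from 1 to 3 between the mutants when 1 library was left out. Between the mutants it was 1 with edgeR, with no filter, with a pseudocount of 5 and with the replicate block. Deviations of same-numbered libraries from their group means correlated with those of w1118 at 0.25, 0.09 and 0.12 in KahΔATG. Different numbers gave -0.22 to 0.11 there. In KahΔZnF same numbers gave -0.26, -0.10 and -0.10 and different numbers -0.13 to 0.20. Same-numbered libraries were thus not alike in KahΔZnF, and a pairing by number in KahΔATG was not tested. The block gave 5, 6 and 1 calls, adding mt:tRNA:R in KahΔATG and losing mt:tRNA:Y between the mutants. Scaling by total reads moved the median of all genes to -0.10 in KahΔATG and -0.12 in KahΔZnF. Among the levels of single genes, the direction turned only for genes that were not called, and the cause was not tested. In KahΔATG mt:ND5 was -0.027 by DESeq2, -0.032 by edgeR, -0.079 by total reads, -0.0215 by total reads without mitochondrial genes and -0.0004 with 9 libraries fitted together. In KahΔZnF mt:ND4L was -0.046 by DESeq2, -0.076 by edgeR, -0.117 and -0.094 by total reads with and without mitochondrial genes, -0.0047 by TMM and -0.0018 with 9 libraries. By total reads with and without mitochondrial genes mt:ND2 was -0.0395 and -0.017 and mt:ND1 -0.082 and -0.0596, and mt:Cyt-b was -0.0011 by total reads.

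With 1 library left out, KahΔATG changes ran from -0.34 to 0.047 for mt:ND3, -0.17 to 0.21 for mt:ND5, -0.096 to 0.32 for mt:ND4, -0.082 to 0.32 for mt:ND6 and -0.21 to 0.25 for mt:tRNA:A. KahΔZnF changes ran from -0.085 to 0.29 for mt:ND2, -0.17 to 0.20 for mt:CoI, -0.22 to 0.18 for mt:CoII, -0.029 to 0.36 for mt:ATPase6, -0.31 to 0.07 for mt:ND5, -0.28 to 0.17 for mt:ND4, -0.21 to 0.26 for mt:ND4L, -0.28 to 0.14 for mt:ND6, -0.048 to 0.37 for mt:Cyt-b and -0.12 to 0.26 for mt:ND1. Between the mutants they ran from -0.25 to 0.19 for mt:CoIII, -0.25 to 0.066 for mt:ND5, -0.33 to 0.074 for mt:ND4, -0.33 to 0.0399 for mt:ND6, -0.29 to 0.094 for mt:Cyt-b, -0.31 to 0.026 for mt:ND1, -0.44 to 0.14 for mt:lrRNA and -0.16 to 0.44 for mt:tRNA:R. The summed levels, which carry no test, also changed sign for the protein-coding genes in KahΔZnF (from -0.11 to 0.27) and between the mutants (-0.34 to 0.02), and for the rRNA genes between the mutants (-0.44 to 0.14). With no filter, 8 members were called in KahΔZnF, with mt:tRNA:Q (0, 2 and 0 reads in w1118 against 4, 6 and 5) and mt:tRNA:D (1, 2 and 1 against 3, 6 and 5) among them. At such counts the fitted changes depend on the pseudocount.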
